A study of Arabidopsis thaliana with 30 samples.

Results

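Transcripts of whole Arabidopsis thaliana seedlings were compared for how strongly they responded to antimycin A in the mutant jmj15 and in wild type (WT). A gene entered if its ID stood in both deposited tables of antimycin A against mock, the table of jmj15 (3008 genes) and that of WT (3481 genes). This left 2057 of the 6297 genes listed in any of the study's 5 tables, while 951 genes stood in the jmj15 table without standing in the WT table and 1424 the other way round. The measure is the response difference, which is the antimycin A minus mock change of log2(value + 1) in jmj15 less that in WT.

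All seedlings were 10 days old and were of the wild-type accession Col-0 or of the jmj15 mutant, which the sample titles give as the allele jmj15-2. They were grown on plates with sucrose and treated in liquid medium with 50 µM antimycin A for 5 h or given a mock treatment, with 3 libraries in each of the 4 groups. The other lines of the study are the mutants snrk1a and crf6 and an overexpressor of SnRK1a (SnRK1aOX), treated in the same way. The mutant is represented by a single allele, and JMJ15 (AT2G34880) stands in none of the 5 tables, so the transcript itself could not check the line labels. The labels do not tell whether replicate libraries stem from independent cultures. The p-values cover only the spread between these libraries, which may be technical. Photosynthesis genes, which mark green tissue, had 0 of 20 members in both tables and 19 in neither. Whole seedlings mix many cell types, and fewer cells of a type cannot be told apart from less RNA per cell.

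Antimycin A blocks complex III of the mitochondrial respiratory chain. When respiration fails, signals from mitochondria reach the nucleus (retrograde signalling) and NAC transcription factors switch on genes for alternative respiration and detoxification. Heat shock factors form a separate arm, which induces chaperones when proteins unfold. JMJ15, a jumonji protein, is a histone demethylase that removes methyl groups from lysine 4 of histone H3, a mark of active genes.

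Both deposited tables hold only genes that the authors had called, with a q under 0.05 and a log2 fold change beyond 1 in size. The listing therefore fixed that every gene changed in both lines, and genes that responded in only 1 line are outside the comparison. It rests on the same libraries, so the spreads and p-values of the test below come from genes that it had already filtered. The smallest absolute log2 fold changes inside were 1.00 in both of the authors' deposited tables, and genes outside were not analysed here. How the values were scaled is not stated, so sequencing depth is unknown, and they are called normalised counts here because they look like counts adjusted for library size. The tables were normalised separately, so changes were tested and levels were not.

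The direction of the response was the same in both lines for all but 2 genes, with 975 genes higher and 1080 lower after antimycin A in both. Across genes the size of the changes was related with a Pearson r of 0.59 among the genes that rose and 0.64 among those that fell. Genes are not independent replicates, and the same libraries underlie all points. The median response difference was 0.14, with quartiles of -0.15 and 0.54. With quantile normalisation the median was -0.067. The tables were normalised separately, and the part of scaling in this small shift was not tested. In 306 genes the difference exceeded 1 in absolute value, while its median standard error was 0.41.

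In the limma fit 46 genes passed an adjusted p of 0.05, which is 2.24% of the 2057 tested. The change was more positive in jmj15 for 34 of them (1.65%) and more negative for 12 (0.583%). Of the 34, 6 are on the list of mitochondrial retrograde genes and 3 on that of detoxifying enzymes, with GSTU24 and GSTU25 on both. In all, 33 of the 34 rose in both lines and rose more in jmj15, and 1, the nitrate transporter NRT2:1, fell less far. Of the 12, 9 rose in both lines and rose less in jmj15, and all 9 encode heat shock proteins or their regulator HSFA2. Another 2 fell further in jmj15, and 1, AT3G52350, moved in opposite directions. The prior of the fit let the spread depend on the mean level, and without that trend 0 genes passed in limma, with 288 at an unadjusted p under 0.05 against 293 with it. The 46 genes had the same sign under every alternative that gave them a value. This was fixed for alternatives that changed only the estimate of the spread, such as the fit without the trend. The number of called genes moved with single libraries. It was 6 without antimycin A replicate 1 or 2 of jmj15, 62 without replicate 3 (52 of them positive) and 14 without mock replicate 1 of jmj15. It was 5, 7 and 13 without antimycin A replicates 1, 2 and 3 of WT. It was 30, 11 and 118 without mock replicates 1, 2 and 3 of WT. When the median difference was set to 0, 28 genes passed, 14 in each direction, and with quantile normalisation, which moved the median difference to -0.067, 93 passed, 56 positive and 37 negative. Called in each fit that left out 1 library were UGT74E2, AGC2-1, AT5G14730, HSP22 and AT1G54050.

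**Figure D1:**
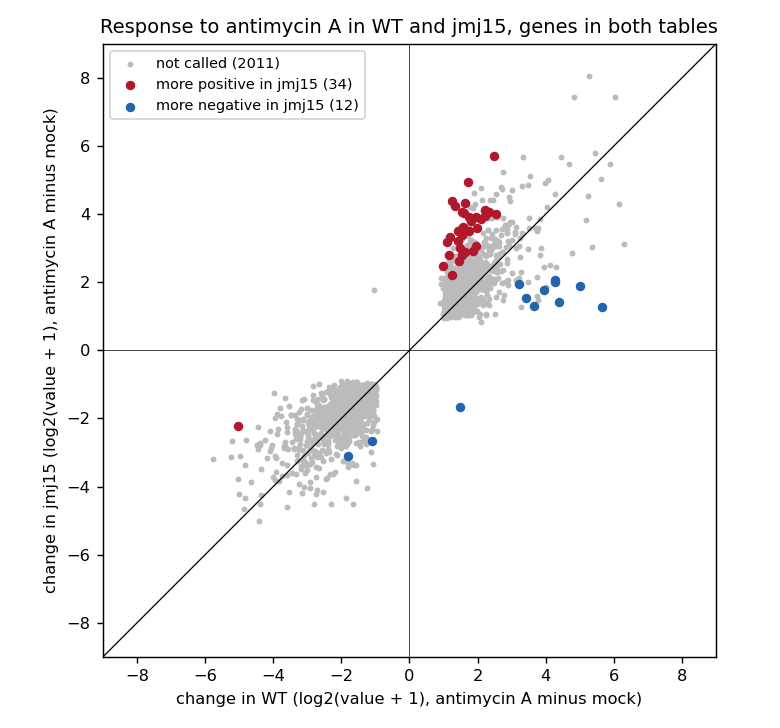
Change of log2(value + 1) from mock to antimycin A in WT (horizontal axis) and in jmj15 (vertical axis) for the 2057 genes in both tables, with the line of equal change. The 34 genes with a more positive change in jmj15 lie above the line, 33 of them in the upper right. The 12 with a more negative change lie below it, 9 of them in the upper right.

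Several chaperone transcripts responded less in jmj15. All 20 of the 25 heat shock list members that stood in both tables rose in both lines. The response difference was below 0 for 18 of them, against 750 of the 2057 genes tested. The median was -1.74, against 0.14 over all genes. Among the 975 genes that rose in both lines 302 had a difference below 0, and 9 were called as more negative. For 7 of the 20 the difference passed the test, all in the negative direction, against 0.583% of all genes called as more negative. A further 1 member stood in the WT table alone and 4 in neither. The count of 7 was 1 without antimycin A replicate 1 or 2 of jmj15, antimycin A replicate 1, 2 or 3 of WT or mock replicate 2 of WT. It was 2 without mock replicate 1 of jmj15, 12 without mock replicate 1 of WT and 0 without the trend in the prior. The median of the list stayed between -2.07 and -1.31 in the fits that left out 1 library.

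HSP22 (AT4G10250, ATHSP22.0 in RefSeq), a small chaperone of the endoplasmic reticulum, had the largest difference. Its normalised counts in WT were 17.2, 16.2 and 5.5 under mock and 591, 439.5 and 1032 under antimycin A. In jmj15 they were 598, 1316 and 376 under mock and 1899.7, 1379.5 and 1564 under antimycin A. Mock and treated libraries did not overlap in either line, and mock replicate 2 of jmj15 stood above the other mock libraries of that line. The log2 change was 5.67 ± 0.48 in WT and 1.26 ± 0.40 in jmj15, a difference of -4.41 ± 0.67 (adjusted p = 0.00876, limma, n = 3 libraries per group).

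HSFA2 (AT2G26150), a heat shock transcription factor that drives many of these genes, followed the same course. Its counts in WT were 103, 43.7 and 40.3 under mock and 1005, 959 and 1445 under antimycin A, and in jmj15 256, 353 and 238 under mock and 1215, 1309 and 893 under antimycin A. The treated libraries of the lines spanned overlapping ranges, while each jmj15 mock library was above each WT mock library. The change was 4.28 ± 0.36 in WT and 2.01 ± 0.22 in jmj15, a difference of -2.26 ± 0.46 (adjusted p = 0.0317, limma). Levels compared between lines, here and below, come from separately normalised tables and were not tested. Over all genes tested the median level in jmj15 minus WT was -0.47 under mock and -0.28 under antimycin A on the log2 scale.

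Chaperones of several compartments were among the called genes. HSP101 (AT1G74310), which pulls proteins out of aggregates, had counts in WT of 1259, 995 and 1094 under mock and 9826, 9423 and 12001 under antimycin A. Its counts in jmj15 were 2575, 4060.1 and 2407 under mock and 11423, 12229 and 10369.6 under antimycin A. The treated ranges overlapped again and the mock ranges did not, and the difference was -1.27 ± 0.26 (adjusted p = 0.0348). HSP23.6-MITO (AT4G25200), a small heat shock protein of mitochondria, differed by -1.87 ± 0.40, from a change of 3.42 ± 0.26 in WT to 1.55 ± 0.25 in jmj15. HSP17.6II (AT5G12020), a cytosolic class II protein, differed by -3.13 ± 0.71. AT1G54050, which RefSeq annotates as an HSP20-like chaperone, differed by -2.19 ± 0.33 (adjusted p = 0.00876), and AT1G59860, of the same annotation, by -2.36 ± 0.45. AT1G53540 (HSP17.6C) and AT1G07400 (HSP17.8), also HSP20-like, differed by -2.99 ± 0.57 and -2.21 ± 0.48. The cytosolic class I genes AT1G53540, AT1G07400 and AT1G59860 are close in sequence, so reads may have been split between them and their single values are uncertain.

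Other list members had negative estimates without passing the test. HSP21 (AT4G27670), of the chloroplast, stood at -3.18 ± 0.95 (adjusted p = 0.116), HSP18.2 (AT5G59720) at -2.15 ± 0.60 (adjusted p = 0.0961) and MBF1C (AT3G24500), a coactivator of heat responses, at -1.16 ± 0.30 (adjusted p = 0.066). HSP17.6B (AT2G29500) and the HSP70 gene AT3G12580 were just outside the threshold at -2.29 ± 0.56 and -1.44 ± 0.35, each with an adjusted p of 0.0504. The stress factor DREB2A (AT5G05410, 0.12 ± 0.28) and the cochaperone BAG6 (AT2G46240, 0.05 ± 0.27) had estimates near 0. The factor HSFB2A (AT5G62020) stood at -0.07 ± 0.27.

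Several genes of mitochondrial retrograde signalling responded more in jmj15. All 16 of 22 list members in both tables rose in both lines. All 16 had a response difference above 0, against 1307 of the 2057 genes tested and 673 of the 975 that rose in both. Of those 975 genes, 33 were called as more positive. The median difference of the list was 0.75, or 0.61 above that of all genes, and 6 members passed the test, 0 of them in the negative direction, against 1.65% of all genes called as more positive. The count was 1 without antimycin A replicate 1 of WT. It was 2 when jmj15 lacked any 1 of antimycin A replicates 1 and 2 and mock replicate 1, or WT any 1 of antimycin A replicates 2 and 3 and mock replicate 2. It was 3 without mock replicate 1 of WT and also when the median difference was set to 0, and it was 0 without the trend in the prior.

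UGT74E2 (AT1G05680), a glycosyltransferase that acts on the auxin precursor indole-3-butyric acid, had the lowest adjusted p of the list. Its counts in WT were 18045, 15019 and 11426 under mock and 54036, 56719 and 58889 under antimycin A. In jmj15 they were 1922, 2880.3 and 2826 under mock and 41663, 43066 and 30892 under antimycin A. In these separately normalised values the jmj15 mock libraries were far below the WT mock libraries. The treated jmj15 libraries were below the treated WT libraries by a smaller factor. The change was 1.96 ± 0.19 in WT and 3.93 ± 0.20 in jmj15, a difference of 1.97 ± 0.29 (adjusted p = 0.00876, limma).

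CYP81D8 (AT4G37370), a cytochrome P450, had counts in WT of 16607, 14478 and 7886 under mock and 46535, 40856 and 43806 under antimycin A. In jmj15 it had 1962, 2914 and 2919.6 under mock and 39581, 43068 and 25993 under antimycin A. The treated ranges of the lines overlapped and the mock ranges did not, and the response difference was 1.97 ± 0.38 (adjusted p = 0.0225). SOT12 (AT2G03760), a sulfotransferase, differed by 1.12 ± 0.25 and ZAT12 (AT5G59820, RHL41 in RefSeq), a zinc finger factor of oxidative stress, by 1.47 ± 0.35. GSTU25 (AT1G17180) and GSTU24 (AT1G17170), neighbouring glutathione transferases that are close in sequence, differed by 1.84 ± 0.30 and 0.98 ± 0.23, and their reads may have been split.

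The alternative oxidases, which take electrons past complex III, rose in both lines without a called difference between them. AOX1A (AT3G22370) changed by 1.21 ± 0.21 in WT and 2.08 ± 0.14 in jmj15, a difference of 0.86 ± 0.26 (adjusted p = 0.119). AOX1D (AT1G32350) stood at a difference of 2.16 ± 0.75 (adjusted p = 0.175), the largest estimate of the list. The alternative dehydrogenases NDB2 (AT4G05020, 0.49 ± 0.27) and NDA2 (AT2G29990, 0.49 ± 0.23) stood lower. So did the regulators NAC013 (AT1G32870, 0.30 ± 0.19) and NAC053 (AT3G10500, 0.43 ± 0.23). CYP81D11 (AT3G28740) rose in both lines with a difference of 0.05 ± 0.30.

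**Figure D2:**
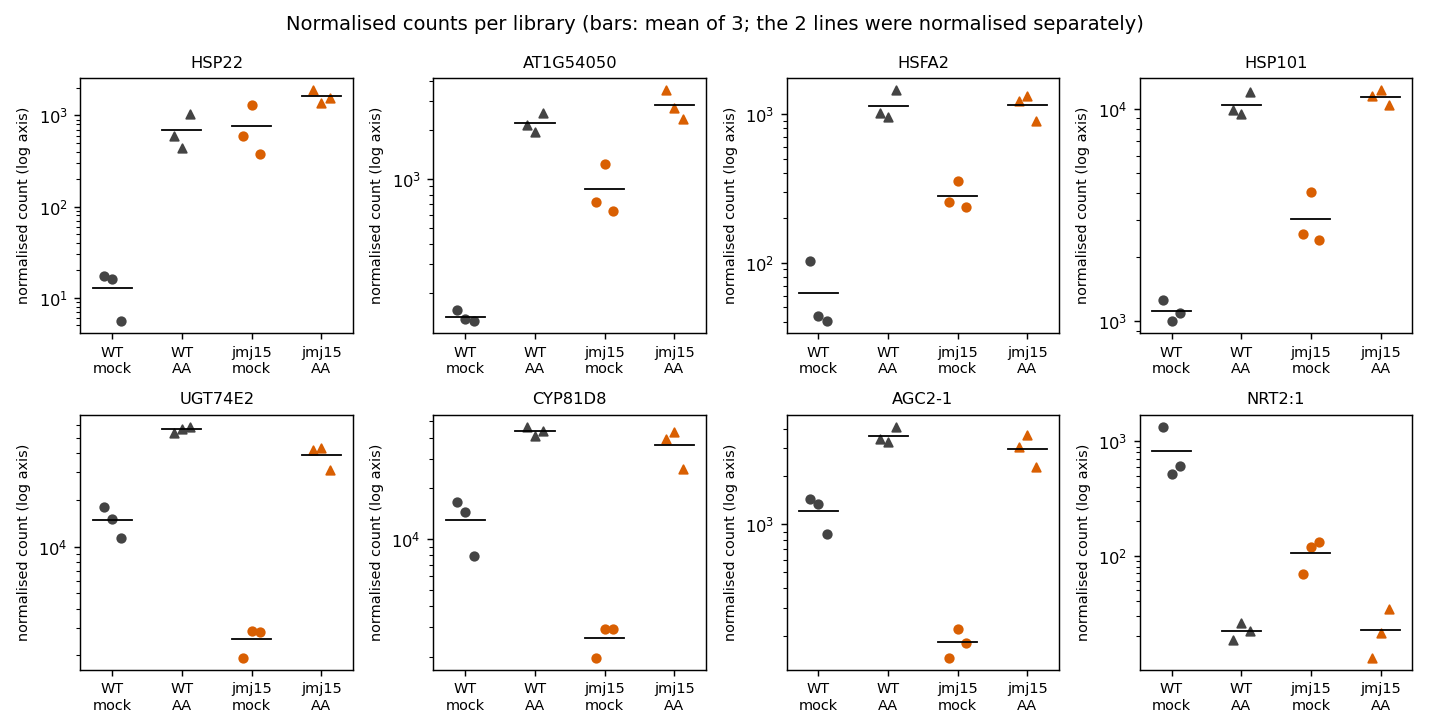
Normalised counts in each library for 8 genes on log axes, WT in grey and jmj15 in orange, circles for mock and triangles for antimycin A (AA), with bars at the mean of 3 libraries. In the upper row the jmj15 mock libraries stand above the WT mock libraries, and for UGT74E2, CYP81D8, AGC2-1 and NRT2:1 below them, while the treated libraries lie closer together. The lines were normalised separately, so levels were not tested.

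Some detoxifying enzymes also responded more in jmj15. On the list of glutathione transferases and other detoxifying enzymes 18 of 22 members stood in both tables, 17 higher and 1 lower in both lines. Of these, 15 had a response difference above 0, against 1307 of the 2057 genes tested and 673 of the 975 that rose in both. The median was 0.81, against 0.14 over all genes. The difference passed the test for 3 members, GSTU24, GSTU25 and GSTU4 (AT2G29460), against 1.65% of all genes called as more positive. The count was 1 without antimycin A replicate 1 or 2 of jmj15 and 5 without replicate 3. It was 0 without antimycin A replicate 1 of WT, 8 without mock replicate 3 of WT and 0 without the trend in the prior. It was 5 with array weights and with the spread of each line estimated apart, and with quantile normalisation 5 members passed as more positive and 2 as more negative. GSTU4 had counts in WT of 1651, 1409 and 763 under mock and 5651, 6169 and 5243 under antimycin A, and in jmj15 of 274, 269 and 305 under mock and 5076, 5154 and 4482 under antimycin A. Its treated libraries were all below those of WT by a small margin, its mock libraries by a wide one, and the difference was 1.88 ± 0.32 (adjusted p = 0.0145). Outside the list GSTU9 (AT5G62480, 2.09 ± 0.40) and GSTU22 (AT1G78340, 1.48 ± 0.32) were called as well. Members below 0 were GSTF8 (AT2G47730, -0.59 ± 0.23), GSTU19 (AT1G78380, -0.44 ± 0.19) and GSTU5 (AT2G29450, -0.43 ± 0.19), with no call.

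Early signalling genes showed 2 called members among 14 of 19 in both tables, against 1.65% of all genes called as more positive. Their differences were above 0 for 12, against 1307 of the 2057 genes tested and 673 of the 975 that rose in both lines. Their median was 0.58, against 0.14 over all genes. With quantile normalisation the median was 0.11, against -0.067 over all genes. The count was 0 without the trend in the prior, and 1 with a pseudocount of 10 and with the median difference set to 0. It was 1 in 9 of the 12 fits that left out 1 library, namely each fit except those without antimycin A replicate 3 or mock replicate 2 of jmj15 (2 each) and without mock replicate 3 of WT (3). AGC2-1 (AT3G25250), a kinase of oxidative signalling also known as OXI1, had counts in WT of 1436, 1344 and 870.1 under mock and 3462, 3284 and 4111 under antimycin A. In jmj15 it had 144, 221 and 180.2 under mock and 3048, 3641 and 2291 under antimycin A. The treated ranges overlapped and the mock ranges did not, and the difference was 2.43 ± 0.32 (adjusted p = 0.00876). The other called member was ZAT12. The zinc finger factors ZAT10 (AT1G27730, 0.89 ± 0.37) and ZAT11 (AT2G37430, 1.25 ± 0.51) and the kinase MPK11 (AT1G01560, 1.27 ± 0.65) were above 0 without a call. ERF109 (AT4G34410), among the most strongly responding of the list, stood at -0.60 ± 1.26.

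The largest positive differences belonged to genes with low mock counts in jmj15. AT1G71520, which encodes a transcription factor of the ERF family, had counts in WT of 331, 241 and 88 under mock and 1035, 1075 and 1094 under antimycin A. In jmj15 it had 14.2, 31 and 13.9 under mock and 1147, 1068 and 829 under antimycin A. Treated libraries of both lines covered overlapping ranges, and the difference was 3.23 ± 0.59 (adjusted p = 0.02). IDL1 (AT3G25655), a peptide related to the abscission signal IDA, differed by 3.12 ± 0.71, with mock means of 67.3 ± 33.9 in WT and 4.44 ± 3.12 in jmj15 (SD, n = 3). BGLU45 (AT1G61810), a beta-glucosidase, differed by 2.89 ± 0.69, the zinc finger gene AT3G46080 by 2.52 ± 0.53 and AT5G57510 by 2.71 ± 0.61. AT5G64790, a glycosyl hydrolase of family 17, stood at 3.25 ± 0.74 with a jmj15 mock count below 1 in all 3 libraries, so that its size rests on values near 0. It has a mean value under 50 and was singled out after its values had been seen.

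Other genes that passed the test with a larger rise in jmj15 have varied annotations. PAD3 (AT3G26830), the last enzyme of camalexin synthesis, differed by 2.09 ± 0.50 and was called in 2 of the 12 fits that left out 1 library. ABCB11 (AT1G02520), an ABC transporter, differed by 2.18 ± 0.40. CYP710A1 (AT2G34500), a desaturase of stigmasterol synthesis, differed by 1.61 ± 0.34 and GAT1_2.1 (AT1G15040), a glutamine amidotransferase, by 1.73 ± 0.30. The oxophytodienoate reductases OPR1 (AT1G76680) and OPR2 (AT1G76690), neighbouring genes close in sequence, differed by 1.75 ± 0.30 and 1.28 ± 0.27. ABR1 (AT5G64750), an ERF factor that represses abscisic acid responses, differed by 1.05 ± 0.23 and AT2G47890, a B-box protein, by 1.17 ± 0.25. AT5G14730, annotated as an uncharacterized protein, differed by 1.61 ± 0.25 (adjusted p = 0.00876). RefSeq likewise annotates AT4G37030 (2.13 ± 0.38), AT2G38823 (2.06 ± 0.49) and AT5G24640 (1.90 ± 0.41) as uncharacterized proteins. It gives AT1G76600 (1.71 ± 0.34) as a poly polymerase and AT1G70420 (1.27 ± 0.29) as a putative DNA ligase-like protein. The acyltransferase genes AT5G42830 (1.75 ± 0.40) and AT3G44830 (1.77 ± 0.41) and the oxygenase gene AT5G43450 (1.50 ± 0.35) complete the 34. Like PAD3, AT1G70420, AT3G44830 and AT5G43450 were called in 2 of those 12 fits. ABR1, OPR2, AT2G47890, AT2G38823 and AT5G24640 were called in 3, and the other genes of this paragraph in 4 to 12.

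Among genes that fell, 2 fell further in jmj15 and 1 less far. EXPA8 (AT2G40610), an expansin that loosens cell walls, had counts in WT of 1817, 2804 and 2131 under mock and 711, 595 and 595 under antimycin A. In jmj15 it had 2448, 2699 and 3239 under mock and 317, 337 and 307 under antimycin A. Here the mock ranges overlapped and the treated jmj15 libraries were all below the treated WT libraries, and the difference was -1.30 ± 0.24 (adjusted p = 0.0204). 4CL3 (AT1G65060), a ligase of flavonoid synthesis, differed by -1.57 ± 0.37 and was called in 1 of the 12 fits that left out 1 library. NRT2:1 (AT1G08090), which takes up nitrate into roots at high affinity, had mock counts of 1343, 522 and 607 in WT and 68.7, 119 and 131 in jmj15. Its treated counts were 18.3, 26 and 21.9 in WT and 12.7, 21.2 and 34 in jmj15. The treated ranges overlapped, and the fall was -5.04 ± 0.38 in WT and -2.23 ± 0.46 in jmj15, a difference of 2.81 ± 0.62 (adjusted p = 0.0386), called in 2 of the 12 fits that left out 1 library.

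AT3G52350, a D111/G-patch domain protein, is the called gene with opposite directions. Its counts in WT were 7.61, 6.09 and 8.5 under mock and 20.3, 18.6 and 28.9 under antimycin A, and in jmj15 30.3, 16.8 and 25.4 under mock and 4.26, 5.64 and 12 under antimycin A. The difference of -3.15 ± 0.67 (adjusted p = 0.0348) rests on low counts, and the gene was singled out after its values had been seen.

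Markers of root cell types had lower sums in jmj15 and no called response difference. All 9 of 15 root hair and endodermis markers in both tables fell in both lines. Of these 0 were called, against 2.24% of all genes tested. Their median response difference was -0.27, against 0.14 over all genes. PRP3 (AT3G62680), a wall protein of root hairs, stood at -0.61 ± 1.23 and CASP1 (AT2G36100), which builds the Casparian strip, at 0.04 ± 0.50. The summed normalised count of the 9 was 2247 to 6518 in WT mock libraries and 711 to 2241 in jmj15 mock libraries. After antimycin A it was 1011 to 1314 in WT and 233 to 566 in jmj15, and 0 of the 9 markers were at 0 in any library. These sums are set across tables that were normalised separately, and the part of root tissue in the differences of NRT2:1 and other genes was not tested.

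Other lists held few or no called members, against 2.24% of all genes tested called and a median of 0.14 over all genes. The single calls were 7.14% of the cell wall members and 16.7% of the immunity members in both tables. Cell wall genes had 14 of 22 in both tables with a median of -0.02, and EXPA8 was the only call, while the wall-modifying enzyme gene XTH24 (AT4G30270) stood at -0.11 ± 0.26. Immunity genes had 6 of 22 with a median of -0.16 and PAD3 as the only call, while WRKY40 (AT1G80840) stood at 0.41 ± 0.43 (adjusted p = 0.801). Without mock replicate 3 of WT its difference was 0.90 and passed the test (adjusted p = 0.022, limma). The other 11 such fits did not pass, and the highest adjusted p among them was 0.969 (limma). Starvation genes, which mark low energy, had 14 of 19 with a median of -0.26 and 0 called. The most abundant of them, DIN10 (AT5G20250, 0.20 ± 0.27) and GDH2 (AT5G07440, 0.27 ± 0.26), had differences within their errors or close to them. Jasmonate genes had 8 of 22 with a median of -0.18 and 0 called, with LOX2 (AT3G45140) at -0.18 ± 0.43 and JAZ1 (AT1G19180) at -0.23 ± 0.24. Cytokinin genes had 8 of 20, all lower in both lines, with a median of 0.45 and 0 called. The receptor AHK4 (AT2G01830, WOL in RefSeq) stood at 0.07 ± 0.19 and the response regulator ARR4 (AT1G10470) at -0.20 ± 0.23.

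The remaining lists held few members in both tables, and NRT2:1 was their only call. It was 14.3% of the nutrient uptake members in both tables, against 2.24% of all genes tested called. The median over all genes was 0.14. CRF1 (AT4G11140), the 1 of 6 cytokinin response factors in both tables, stood at -0.06 ± 0.52. The 5 clock genes of 13 had a median of -0.39, with CCA1 (AT2G46830) at -0.46 ± 0.22 and LHY (AT1G01060) at -0.39 ± 0.18. Abscisic acid genes had 2 of 14 (NCED3, AT3G14440, -0.02 ± 0.24, and HAI1, AT5G59220, -0.14 ± 0.50). Auxin genes had 4 of 21, with GH3.3 (AT2G23170) at -0.09 ± 0.21 and GH3.5 (AT4G27260, WES1 in RefSeq) at 0.15 ± 0.26. The unfolded protein response had 2 of 13, BZIP60 (AT1G42990) at 0.41 ± 0.23 and ERDJ3A (AT3G08970) at -0.42 ± 0.34. Besides NRT2:1, nutrient uptake had 6 further members of 21 in both tables, with BTS (AT3G18290) at 0.05 ± 0.16.

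**Figure D3:**
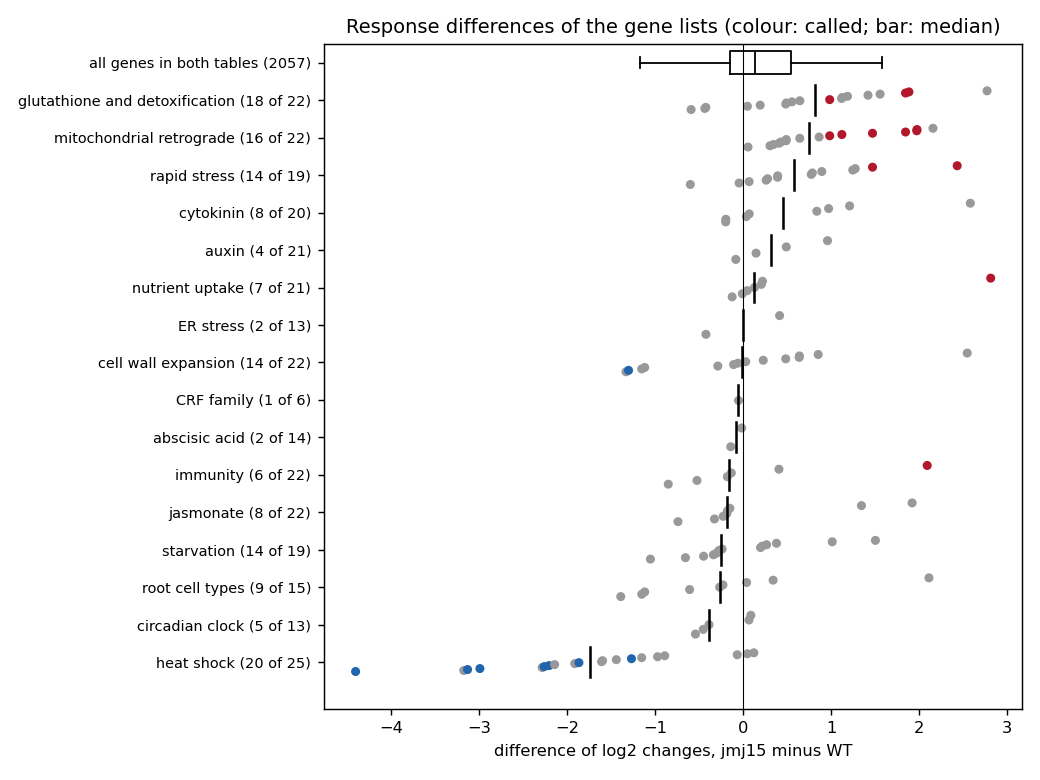
Response difference (jmj15 minus WT, log2) of each list member in both tables, with called members in red or blue, medians as bars and a box of quartiles for all 2057 genes, whiskers reaching at most 1.5 times the length of the box. The label gives the members in both tables of those on the list. The heat shock list lies lowest with a median of -1.74, and the detoxification and retrograde lists highest at 0.81 and 0.75.

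For most called genes the lines lay further apart under mock than under antimycin A. Over all 2057 genes the median level in jmj15 minus WT was -0.47 on the log2 scale under mock and -0.28 under antimycin A. For the 34 genes with a more positive change it was -2.37 under mock and -0.34 under antimycin A, and all 34 were lower in jmj15 under mock. For the 12 with a more negative change it was 2.60 under mock and 0.32 under antimycin A, and all 12 were higher in jmj15 under mock. The mock gap was the larger one in 44 of the 46. The response difference is the antimycin A gap less the mock gap, and these 46 genes were chosen by it. That choice favours mock gaps of the direction seen, so the counts describe the called genes and are no separate result. On the heat shock list the median gap was 2.36 under mock and 0.89 under antimycin A, and the summed count of its 20 members was 6621 to 14219 in WT mock and 28391 to 51575 in jmj15 mock libraries. On the retrograde list the median gap was -1.34 under mock and -0.45 under antimycin A. These gaps compare separately normalised tables and were not tested.

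**Figure D4:**
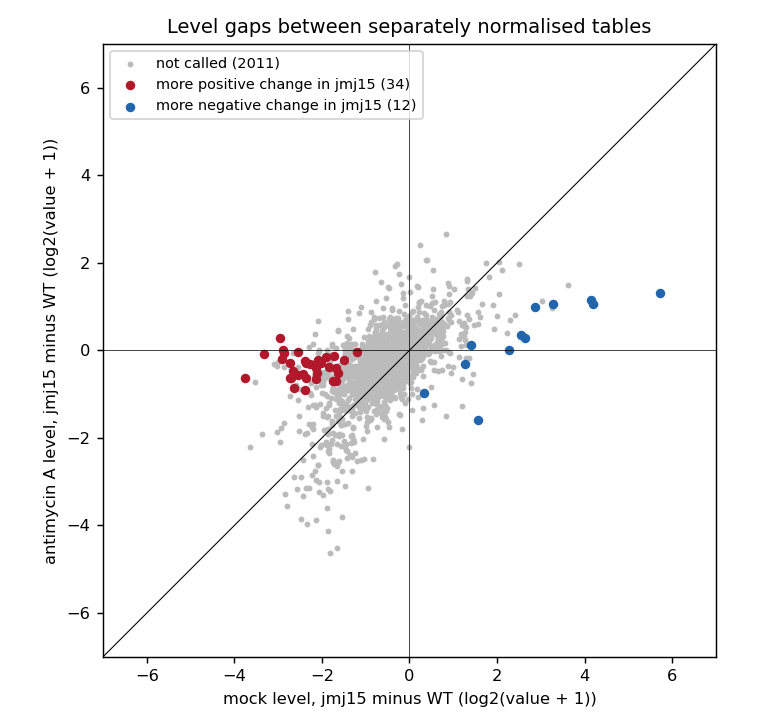
Level in jmj15 minus level in WT (mean log2(value + 1), n = 3 libraries each) under mock (horizontal axis) and under antimycin A (vertical axis) for the 2057 genes, with the line of equal gaps. The tables were normalised separately. The called genes spread along the horizontal axis, with median mock gaps of -2.37 and 2.60, and lie closer to 0 on the vertical axis, with medians of -0.34 and 0.32. They were chosen by the difference between the 2 axes.

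The other lines of the study show where WT and jmj15 stand. Of the 46 called genes 44 were listed in all 5 tables, and in 38 of these the changes of snrk1a, crf6 and SnRK1aOX all lay between that of WT and that of jmj15. The genes had been chosen for the distance of WT from jmj15, so this describes where the others fall. HSP22 changed by 5.14 ± 0.43 in snrk1a, 4.53 ± 0.51 in crf6 and 3.37 ± 0.35 in SnRK1aOX, all above its change in jmj15. UGT74E2 changed by 2.76 ± 0.21 in snrk1a, 2.09 ± 0.14 in crf6 and 2.53 ± 0.33 in SnRK1aOX, all below its change in jmj15. NRT2:1 fell by 1.93 ± 0.40 in snrk1a, 3.68 ± 0.43 in crf6 and 2.58 ± 0.29 in SnRK1aOX, so that WT lay outside the range of the other lines there and jmj15 did not.

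The change in jmj15 was also tested against the mean change of the other 4 lines, over the 1125 genes listed in all 5 tables and all 30 libraries. In limma 51 genes passed (4.53%), 41 with a more positive change in jmj15 (3.64%) and 10 with a more negative one (0.889%). This test shares the jmj15 and WT libraries with the first. It called 17 and 13 genes when jmj15 lacked antimycin A replicate 1 or 2, and 19 when it lacked mock replicate 1. AGC2-1 differed from that mean by 1.89 ± 0.32 (adjusted p = 0.00216), UGT74E2 by 1.59 ± 0.28 (adjusted p = 0.00216) and EXPA8 by -1.21 ± 0.28 (adjusted p = 0.0123). HSP22 differed by -3.41 ± 0.58 (adjusted p = 0.00216) and HSP101 by -0.93 ± 0.25 (adjusted p = 0.0269). Of the 44 genes called against WT and listed in all 5 tables, 32 passed this limma test as well. Among those that did not pass were HSFA2 (-1.10 ± 0.43, adjusted p = 0.162), GSTU25 (1.22 ± 0.40, adjusted p = 0.0885), PAD3 (1.03 ± 0.39, adjusted p = 0.145), 4CL3 (-0.70 ± 0.26, adjusted p = 0.134) and NRT2:1 (1.08 ± 0.50, adjusted p = 0.238). Of the heat shock list 20 members were in this test, with a median of -1.07 and 5 called as more negative. Of the retrograde list 15 were in it, all above 0, with a median of 0.68 against 0.15 over all 1125 genes and 4 called as more positive.

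**Figure D5:**
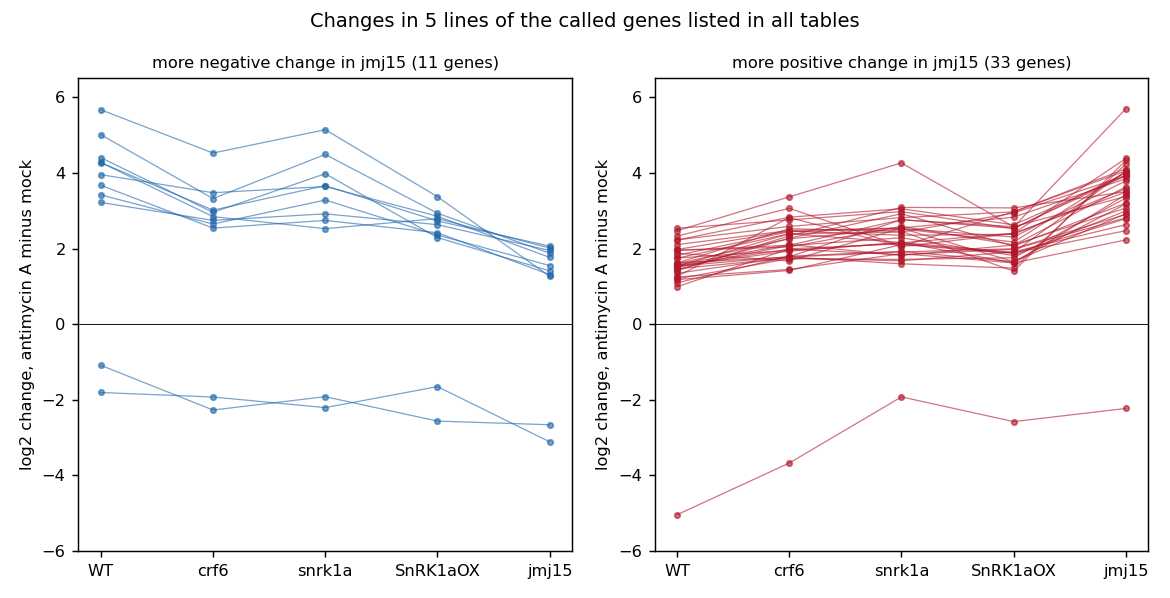
Log2 change from mock to antimycin A in each of the 5 lines for the 44 called genes listed in all tables, 1 line per gene, with the 11 of more negative change in jmj15 on the left and the 33 of more positive change on the right. The order of lines on the horizontal axis carries no scale. The changes of crf6, snrk1a and SnRK1aOX mostly lie between those of WT and jmj15.

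Promoters of the called genes were searched for motifs of stress regulators in the 250 bases before the annotated start, on both strands. All 250 bases were counted, also where a neighbouring gene reaches into them. The dysfunction motif of CYP81D8 begins 140 bases before the start, where only 72 bases are free of the neighbour. The W box of OPR2 begins 48 bases before its start, where 0 bases are free. These are not the only such matches. The W box of GSTU24 begins 190 bases before the start, where 106 are free. The GCC box of HSFA2 begins 201 bases before it, where 158 are free. Counts are given for the 34 genes with a more positive change and the 12 with a more negative one. Beside them stand the shares in 2039 promoters of the genes tested and in all 27443 nuclear protein-coding promoters. The mitochondrial dysfunction motif, which NAC factors of retrograde signalling bind, occurred in 6 of the 34 and 2 of the 12, in 1.77% of the genes tested and in 1.2% of all promoters. The W box (TTGACC or TTGACT), which WRKY factors bind, occurred in 20 of the 34 and 2 of the 12, in 33.7% of the genes tested and in 28.4% of all. The core of the heat shock element (GAANNTTC or TTCNNGAA, which may overlap) occurred in 8 of the 34 and 2 of the 12, in 17% of the genes tested, in 16.1% of all and in 9 of the 20 heat shock list members. The G box (CACGTG) occurred in 3 of the 34 and 1 of the 12, in 7.9% of the genes tested and in 6.49% of all. The GCC box (GCCGCC) occurred in 3 of the 34 and 2 of the 12, in 1.52% of the genes tested and in 1.87% of all. The evening element (AAATATCT) occurred in 2 of the 34 and 0 of the 12, in 5% of the genes tested and in 4.79% of all. A match is a description of these letters and not evidence of binding.

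The promoters below, from the RefSeq assembly TAIR10.1, show where the matches lie. They are shown because they hold the mitochondrial dysfunction motif and overlap no other annotated gene (ABCB11, chr1:523286-523535, plus strand; CYP710A1, chr2:14541618-14541867, minus strand; AT1G76600, chr1:28746583-28746832, plus strand; AT2G38823, chr2:16223747-16223996, plus strand), with that motif in capitals. Each ends at the base before the gene's start and runs 5′ to 3′ on the gene's strand.
ABCB11: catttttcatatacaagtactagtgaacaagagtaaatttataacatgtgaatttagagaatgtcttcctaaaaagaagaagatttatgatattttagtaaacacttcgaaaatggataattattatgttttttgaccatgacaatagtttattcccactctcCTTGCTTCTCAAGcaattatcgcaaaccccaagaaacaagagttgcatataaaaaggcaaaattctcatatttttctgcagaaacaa
CYP710A1: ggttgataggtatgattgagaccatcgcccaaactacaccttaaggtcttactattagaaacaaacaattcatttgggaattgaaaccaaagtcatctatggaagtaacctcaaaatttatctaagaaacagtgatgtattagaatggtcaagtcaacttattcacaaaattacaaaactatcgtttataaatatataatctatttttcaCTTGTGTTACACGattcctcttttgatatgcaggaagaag
AT1G76600: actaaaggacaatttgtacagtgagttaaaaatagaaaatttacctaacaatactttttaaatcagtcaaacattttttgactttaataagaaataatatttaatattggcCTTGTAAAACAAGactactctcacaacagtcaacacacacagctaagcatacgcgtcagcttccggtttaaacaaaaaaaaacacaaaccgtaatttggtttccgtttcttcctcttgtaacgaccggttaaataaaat
AT2G38823: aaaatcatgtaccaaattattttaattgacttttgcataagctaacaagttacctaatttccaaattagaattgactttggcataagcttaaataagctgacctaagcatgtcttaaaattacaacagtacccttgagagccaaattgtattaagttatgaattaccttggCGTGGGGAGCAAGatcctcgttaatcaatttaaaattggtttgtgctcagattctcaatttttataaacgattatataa

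The heat shock genes HSFA2 (chr2:11135466-11135623, plus strand) and AT1G53540 (chr1:19980126-19980298, plus strand), both with a smaller rise in jmj15, hold the only cores of the heat shock element among the 12, in capitals here. Their windows are cut to 158 and 173 bases where the neighbouring gene ends.
HSFA2: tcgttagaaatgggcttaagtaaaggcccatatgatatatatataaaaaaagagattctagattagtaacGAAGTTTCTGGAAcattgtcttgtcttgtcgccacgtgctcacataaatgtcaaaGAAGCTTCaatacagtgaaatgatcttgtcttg
AT1G53540: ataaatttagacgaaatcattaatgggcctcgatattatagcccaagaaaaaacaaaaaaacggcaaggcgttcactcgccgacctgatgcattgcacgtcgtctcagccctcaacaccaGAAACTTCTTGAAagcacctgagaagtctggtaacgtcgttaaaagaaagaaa

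In HSFA2 matches begin 88, 83 and 33 bases before the start, and in AT1G53540 they begin 53 and 48 bases before it. The dysfunction motif begins 87 bases before the start of ABCB11, 40 before that of CYP710A1, 139 before that of AT1G76600 and 79 before that of AT2G38823.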

How the data were processed

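RNA-seq of 30 libraries was deposited as 1 table per line, and 12 libraries (3 in each of 4 groups) enter the main comparison. Reads were aligned with Bowtie 0.12.2 to TAIR10, per the submitters' processing notes, while for counting, normalising and testing the tool is not given in the sources used here. The deposited values are a signal per gene and library, named by library in the file headers. Their scaling by the authors is not stated, and they look like read counts adjusted for library size within each table. Further deposited columns are a log2 fold change, p-values and q-values, and in both tables a −log10 q-value. At low levels 27.3 to 71.1% of values in 9 of the 12 libraries, and 99.0 to 100.0% in 3, lay within 0.1 of a whole multiple of 1 step, so reads were not recovered and no count model was used.

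The genotype by treatment interaction was fitted in limma 3.58.1 (R 4.3.3) on log2(value + 1) with a trended empirical Bayes prior, two-sided, with Benjamini-Hochberg adjustment over all 2057 genes and a threshold of 0.05. Because 1 was added, changes of low genes are understated. Changes within a line, with their standard errors, come from a fit of that line's table. Levels were not tested.

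Up to 6 called genes per class of response with a mean value of at least 50 were named, together with the called or most abundant members of 17 gene lists. Other genes were named because they were called or, in the account of a list, to show its range. The members and lists were chosen with earlier results of these data known. By locus tag 2039 of the 2057 IDs matched RefSeq (TAIR10.1), which gave names, annotations and promoter sequences. The alternatives were other pseudocounts, a filter, priors, weights, scalings, a replicate block and leaving out each library.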

Additional observations from a re-analysis of the deposited data

Results flagged for a closer look

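The response to antimycin A differed between jmj15 and WT for 46 genes in the interaction test itself, which compares the same contrast in both lines. The named genes among them with a more negative change in jmj15 were HSP22 (-4.41), HSP17.6II (-3.13), AT1G53540 (-2.99), AT1G59860 (-2.36), HSFA2 (-2.26), AT1G07400 (-2.21), HSP23.6-MITO (-1.87), 4CL3 (-1.57), EXPA8 (-1.30) and HSP101 (-1.27), each a difference of log2 changes. Those with a more positive change were AT1G71520 (3.23), IDL1 (3.12), BGLU45 (2.89), NRT2:1 (2.81), AT5G57510 (2.71), AT3G46080 (2.52), AGC2-1 (2.43), PAD3 (2.09), UGT74E2 (1.97), CYP81D8 (1.97), GSTU4 (1.88), GSTU25 (1.84), ZAT12 (1.47), SOT12 (1.12) and GSTU24 (0.98). Groups of 3 libraries are too small for a test of single outlying libraries.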

How the results depend on the processing

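The 46 calls kept their sign under each alternative that gave a value, while their number did not stay. The sign could not change where an alternative altered only the spread, as without the trend, with spreads apart or with the replicate block. Called genes numbered 0 without the trend in the prior, 28 with the median difference set to 0, 78 with the spread of each line estimated apart, and 93 both with array weights and with quantile normalisation. More positive calls numbered 0, 14, 60, 76 and 56 in these fits (array weights before quantile normalisation), against 34, and more negative calls 0 without the trend and 37 with quantile normalisation, against 12. When 1 library was left out, all calls ranged from 5 to 118, positive calls from 3 to 102 and negative calls from 2 to 17. Heat shock calls numbered 0 without the trend, 11 with spreads apart and 15 with quantile normalisation, and 1 to 12 with 1 library left out. Retrograde calls numbered 0 without the trend and 3 with the median set to 0, and 1 to 9 with 1 library left out. Alternatives for these list counts were chosen after seeing the data. Against the mean of the other 4 lines, calls numbered 148 with array weights, 93 with quantile normalisation and 93 with spreads apart, against 51, and 13 to 76 with 1 library left out. The cause was not tested for any of these.

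With the replicate block 44 genes were called (31 positive and 13 negative), 34 of them among the 46, and 42 against the mean of the other 4 lines. The deviations of same-numbered libraries correlated across genes at -0.06 to 0.05, so no shared deviation was seen. Such values cannot tell whether the numbers pair the samples by design.

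Among named genes with no call, estimates near 0 changed sign. With the median difference set to 0 and with quantile normalisation, AHK4 (WOL) stood at -0.070 and -0.21, CASP1 (AT2G36100) at -0.10 and -0.046 and BTS at -0.092 and -0.094, and with deposited fold changes, an alternative added later, CRF1 stood at 0.071. With 1 library left out the ranges crossed 0 for AHK4 (-0.040 to 0.14), GH3.3 (-0.21 to 0.0034), CASP1 (-0.22 to 0.42), NCED3 (-0.14 to 0.099), BTS (-0.038 to 0.11), LOX2 (-0.45 to 0.10), CRF1 (-0.33 to 0.42), GH3.5 (-0.035 to 0.35), XTH24 (-0.26 to 0.033) and HAI1 (-0.40 to 0.14).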
